A study of Mus musculus with 6 samples.

Results

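The AP-1 and Egr immediate early genes are described here in cultured mouse ependymal cells with and without Edf1, a small protein reported as a transcriptional coactivator of Jun. The 10 genes were fixed by name: the Fos family (Fos, Fosb, Fosl1 and Fosl2), the Jun family (Jun, Junb and Jund) and 3 genes of the Egr family (Egr1, Egr2 and Egr3). All 10 were found among the 22851 gene symbols of the count table. RNA came from radial glial cells, the neural progenitors of the ventricle wall, taken from the brains of C57BL/6J pups aged P0 to P3. The cells were grown in DMEM with 10% serum and then held without serum for 6 days, which turns them into multiciliated ependymal cells. One group was wild type (WT) and the other came from Edf1 knockout mice made with CRISPR/Cas9, with 3 biological replicates each. The labels do not give the knockout allele, the sex of the pups or how many pups made up a culture, and no driver restricts the knockout to 1 cell type.

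Fos and Jun proteins pair through a leucine zipper to form AP-1, which binds short DNA sites in the promoters and enhancers of growth, stress and matrix genes. Jun proteins can pair with themselves or with Fos proteins, whereas Fos proteins need a Jun partner. Egr proteins are zinc finger factors that bind GC-rich sites. Many of these genes are transcribed within minutes of a stimulus such as serum, through serum response factor and CREB, and their RNAs are short-lived. Jund is the exception among the Jun genes, being transcribed steadily in most cells.

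Promoter sequence from RefSeq (GRCm38.p6) was at hand for 7 of the 10 genes and none was used for Fosl1, Egr1 and Egr3. The 3 windows below are shown because Fos, Jun and Junb were all higher in the knockout and their RefSeq starts lie within 30 bases of the starts in GENCODE M21. Each holds the 250 bases before the start, 5′ to 3′ on the gene's strand, at chr12:85473640-85473889 (plus strand) for Fos, chr4:95052223-95052472 (minus strand) for Jun and chr8:84978749-84978998 (minus strand) for Junb. Capitals mark matches to the CRE half-site TGACG, the AP-1-like site TGACATCA, the CCAAT box CCAAT and the TATA box TATAAA.
Fos: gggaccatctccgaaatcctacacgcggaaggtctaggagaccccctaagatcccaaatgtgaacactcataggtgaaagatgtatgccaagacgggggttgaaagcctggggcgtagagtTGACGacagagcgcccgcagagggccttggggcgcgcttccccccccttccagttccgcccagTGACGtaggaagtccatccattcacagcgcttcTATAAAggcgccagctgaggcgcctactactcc
Jun: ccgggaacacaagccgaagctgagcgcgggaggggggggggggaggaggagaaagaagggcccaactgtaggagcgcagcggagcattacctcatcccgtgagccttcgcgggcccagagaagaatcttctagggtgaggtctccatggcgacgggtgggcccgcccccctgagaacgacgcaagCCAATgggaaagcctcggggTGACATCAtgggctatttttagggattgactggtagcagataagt
Junb: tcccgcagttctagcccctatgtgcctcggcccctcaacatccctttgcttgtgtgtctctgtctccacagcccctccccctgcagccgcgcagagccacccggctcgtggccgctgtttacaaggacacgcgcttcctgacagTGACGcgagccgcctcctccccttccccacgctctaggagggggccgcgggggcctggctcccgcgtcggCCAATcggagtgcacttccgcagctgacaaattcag

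The letters TGACG were found in the windows of Fos and Junb, with 2 matches in Fos that begin 129 and 66 bases before the start and 1 in Junb that begins 106 bases before it. Among genes that were not called, they were also found in Fosb, beginning 60 bases before the start, and in 3 overlapping windows of Egr2. They occur on either strand in 17.8% of all 32851 RefSeq windows of the same length. The Jun window held TGACATCA, which begins 45 bases before the start and occurs in 2.93% of windows. CCAAT was found in Jun and Junb (33.8% of windows) and TATAAA in Fos (12.4%). The full CRE TGACGTCA (1.55% of windows), the AP-1 site TGANTCA (6.75%), the Egr site GCGTGGGCG (0.536%) and the CArG box bound by serum response factor (1.47%) had no match in these 3 windows. Sequence more than 250 bases before the start was not searched, so a site there would be missed. No 2 of the marked matches overlap. In Egr2, which has 5 RefSeq starts and was not called, the CArG box matched at 2 sites, 1 in a single window and 1 shared by 3 overlapping windows. Those 3 windows also held CCAAT. The window of Fosl2, which was called, and that of Jund held no match to any site searched. Their RefSeq starts lie 671 and 1210 bases from the GENCODE starts. Both strands were searched, and a match is a description of letters, not evidence of binding.

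Library depth was 13071766 to 28087006 counts, lowest in WT replicate 2 and highest in knockout replicate 3. Edf1 itself had a mean of 82.9 ± 2.85 counts per 1000000 (CPM) in WT cells and 11.3 ± 1.72 CPM in knockout cells (SD, n = 3 each), 13.7% of the WT level, so the labels matched the targeted gene in all 6 libraries. Of the 31-base words in Edf1 transcripts, 12.3% also occur in Gm11964 or Gm12274. Whether such copies gave part of the remaining counts was not tested. Levels are CPM on library sizes scaled by TMM. Fold changes are knockout over WT on the log2 scale with their standard error (SE). Adjusted p-values are from edgeR's quasi-likelihood test with Benjamini-Hochberg adjustment over all 14243 genes that had enough counts, and a gene was called at a value under 0.05. Of the 10 genes, 9 could be tested and Egr3 had too few counts.

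Among the 9 tested genes, 5 rose in the knockout: Egr1, Fosl2, Fos, Junb and Jun. Over all tested genes, 26.9% were called in either direction and 12.7% were called higher. For these 5 genes, and for none of the other 4, all 3 knockout libraries lay above all 3 WT libraries. Over all tested genes the groups did not overlap for 43.3%, and the knockout lay wholly above for 21.3%. The rises were between 1.19-fold for Jun and 1.52-fold for Egr1. Fosb, Fosl1, Egr2 and Jund were not called, and Jund was the only 1 of the 9 with a value below 0. The median log2 fold change was 0.38 over the 9 tested genes and 0.0029 over all tested genes.

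**Figure D1:**
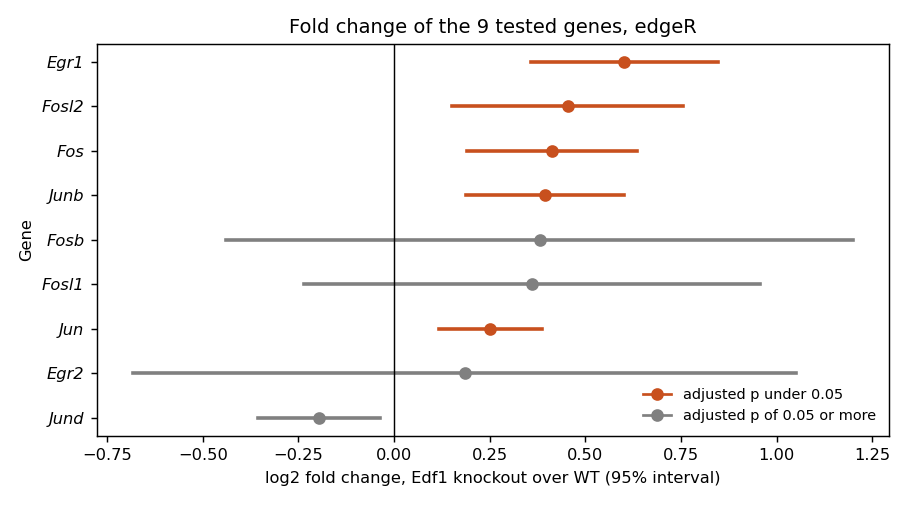
Log2 fold change of knockout over WT for the 9 tested genes (points) with the 95% interval from edgeR's quasi-likelihood fit (bars, n = 3 libraries each). Egr1, Fosl2, Fos, Junb and Jun are coloured as called and lie above 0, and Jund lies at -0.20 and is not called.

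In the Jun family, Jun encodes the archetypal AP-1 subunit. It had 58.4, 60.8 and 60.2 CPM in WT replicates 1, 2 and 3 and 68.2, 76.6 and 68.4 CPM in knockout replicates 1, 2 and 3. The groups did not overlap, and knockout replicate 2 stood highest. Jun rose by 0.25 on the log2 scale (SE 0.062; edgeR adjusted p-value 0.00980). Without knockout replicate 2 the difference was 0.19 and no longer called (edgeR adjusted p-value 0.0599).

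Junb, whose protein is a weaker activator than Jun and can oppose it, had 15.3, 12.7 and 14.2 CPM in the WT replicates. It had 20.2, 18.3 and 17.8 CPM in the knockout replicates. Every knockout value exceeded every WT value. Junb rose by 0.39 on the log2 scale (SE 0.095; edgeR adjusted p-value 0.00871), and the call held in each of the 15 alternatives run.

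Jund, the steadily transcribed member, went the other way in its mean. It had 157, 172 and 138 CPM in the WT replicates and 129, 137 and 141 CPM in the knockout replicates. The groups overlapped because WT replicate 3 lay below knockout replicate 3. Its fold change on the log2 scale was -0.20 (SE 0.074, 95% interval -0.36 to -0.036), with p-values by edgeR of 0.0204 before adjustment and 0.0678 after it. It passed the threshold without WT replicate 3 (-0.27, edgeR adjusted p-value 0.00805), after correction for GC content and transcript length (-0.23, 0.00225) and with no low-count filter (-0.19, 0.0474). With all 6 libraries, Jund was the only tested gene of the 9 with a value below 0, so no other could be called lower.

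Because Jund was lower in its mean and both other Jun genes were higher, the make-up of the family was compared within each library. Levels were divided by the length of all annotated exons in GENCODE M21, 1668 bases for Jund, 3189 for Jun and 2301 for Junb. Jund held 79.0%, 80.8% and 76.8% of the family's CPM per kb in the WT replicates and 71.9%, 72.0% and 74.4% in the knockout replicates. The WT replicates had Jun shares of 15.4%, 14.9% and 17.5%, and the knockout replicates 19.9%, 21.03% and 18.8%. For Junb the WT shares were 5.60%, 4.33% and 5.71%, and the knockout shares 8.16%, 6.95% and 6.78%. None of the 3 shares overlapped between the genotypes, and over all tested genes the levels of 43.3% did not overlap. The direction of the shares follows from the changes of the 3 genes given above, so it adds no separate result. The shares sum to the whole, so they are not independent, and no test was run on them. The sum itself was 118 ± 10.1 CPM per kb for WT and 112 ± 3.85 CPM per kb for the knockout (SD, n = 3), and the groups overlapped.

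**Figure D2:**
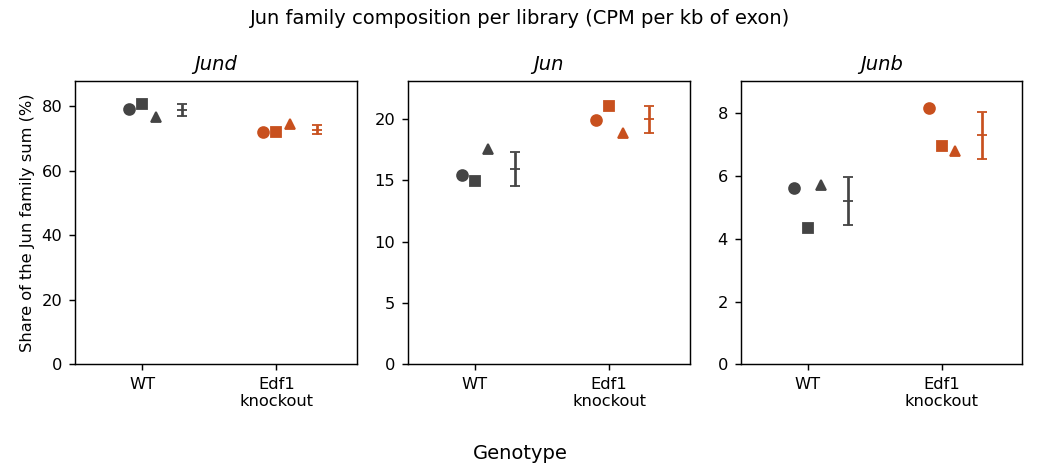
Share of each Jun gene in the Jun family sum of CPM per kb of exon, per library (symbols mark replicates 1 to 3) with mean ± SD beside them, on axes that start at 0. The Jund share is 76.8% to 80.8% in WT and 71.9% to 74.4% in the knockout, and the Jun and Junb shares lie higher in the knockout.

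In the Fos family, Fos had 13.1, 12.4 and 13.0 CPM in the WT replicates and 19.4, 15.3 and 16.8 CPM in the knockout replicates. The WT libraries lay close together, and knockout replicate 1 was the highest of all. Fos rose by 0.41 on the log2 scale (SE 0.10; edgeR adjusted p-value 0.00988). Without knockout replicate 1 the difference was 0.32, just short of the threshold (edgeR adjusted p-value 0.0502).

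Fosl2 encodes Fra-2, a Fos protein without the strong activation domain of Fos. It had 5.99, 5.52 and 5.95 CPM in the WT replicates and 9.22, 8.02 and 7.01 CPM in the knockout replicates. The groups did not overlap, although the knockout values were spread more widely than the WT values. Fosl2 rose by 0.45 on the log2 scale (SE 0.14; edgeR adjusted p-value 0.0300). The call was lost in 4 of the 6 fits that left out a library: without WT replicate 1 (0.48, edgeR adjusted p-value 0.0621), WT replicate 3 (0.47, 0.0522), knockout replicate 1 (0.35, 0.127) or knockout replicate 2 (0.45, 0.0760).

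Fosl1, which encodes Fra-1, had 1.62, 1.48 and 1.41 CPM in the WT replicates and 2.15, 2.45 and 1.38 CPM in the knockout replicates. Knockout replicates 1 and 2 lay above every WT library and knockout replicate 3 below them all. Its fold change on the log2 scale, 0.36 (SE 0.27, 95% interval -0.23 to 0.95), was not called (edgeR adjusted p-value 0.368). Fosb rested on 6 to 19 counts per library, and its log2 fold change of 0.38 had a 95% interval of -0.44 to 1.20 (edgeR adjusted p-value 0.499). For both genes the interval still holds a rise as large as that of Fos, so a difference of that size could not be told from none with these 6 libraries.

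Fos made up most of the length-scaled Fos family RNA in both genotypes, with 79.2% ± 0.97 in WT and 79.0% ± 3.76 in the knockout (SD, n = 3). The share of Fosl2 was 8.73% ± 0.18 and 9.04% ± 0.61, and that of Fosl1 10.7% ± 0.63 and 10.7% ± 3.07. These shares overlapped between the genotypes. The Fos family sum was 7.08, 6.66 and 6.90 CPM per kb in the WT replicates and 10.4, 8.65 and 8.65 CPM per kb in the knockout replicates, with no overlap. Fos, the largest part of that sum, did not overlap either, and neither did 43.3% of all tested genes.

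In the Egr family, Egr1 rose the most of the 9 tested genes. It had 15.3, 11.4 and 13.5 CPM in the WT replicates and 22.3, 21.6 and 18.6 CPM in the knockout replicates. The lowest knockout library was above the highest WT library, and WT replicate 2 was the lowest of the 6. On the log2 scale the rise was 0.60 (SE 0.11, 95% interval 0.36 to 0.85; edgeR adjusted p-value 0.00176), and it was called in each of the 15 alternatives. Of all tested genes, 4.58% had a larger rise.

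Egr2, best known for its part in myelinating Schwann cells and hindbrain patterning, had 17 to 30 counts per library. Its level was 0.640, 1.63 and 1.19 CPM in the WT replicates and 1.84, 1.17 and 0.814 CPM in the knockout replicates, with full overlap. The difference was 0.18 on the log2 scale (SE 0.40, 95% interval -0.68 to 1.05; edgeR adjusted p-value 0.773). Its sign turned without WT replicate 1 (-0.18) or knockout replicate 1 (-0.15), so no direction can be given. Egr3, known from neurons and T cells, had 8, 1 and 5 counts in the WT replicates and 10, 15 and 8 in the knockout replicates. Those totals were too low to test, and the value of WT replicate 2 was at or under a floor of 3 counts, which covers counting error only. Egr1 held 88.2% ± 4.68 of the length-scaled family RNA in WT and 90.4% ± 2.63 in the knockout (SD, n = 3).

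Across the 10 genes the length-scaled levels covered a wide range, and their order was nearly the same in both genotypes. In WT it ran from Jund (93.4 ± 10.3 CPM per kb) through Jun (18.7 ± 0.39), Junb (6.12 ± 0.56), Fos (5.45 ± 0.17), Egr1 (2.99 ± 0.44), Fosl1 (0.738 ± 0.054), Fosl2 (0.601 ± 0.027) and Egr2 (0.340 ± 0.15) to Fosb (0.0909 ± 0.034) and Egr3 (0.0491 ± 0.028) (SD, n = 3). Among neighbours in that order, Junb and Fos overlapped between libraries, as did Fosb and Egr3. In the knockout, Junb and Fos, Fosl1 and Fosl2, and Egr3 and Fosb overlapped, and the last pair stood in the opposite order of means. The size of the Jund level per kb depends on its annotated length, since its RefSeq start lies 1210 bases upstream of the GENCODE start used here. Jund also had the highest level of the 10 genes in CPM not divided by length, in every library.

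**Figure D3:**
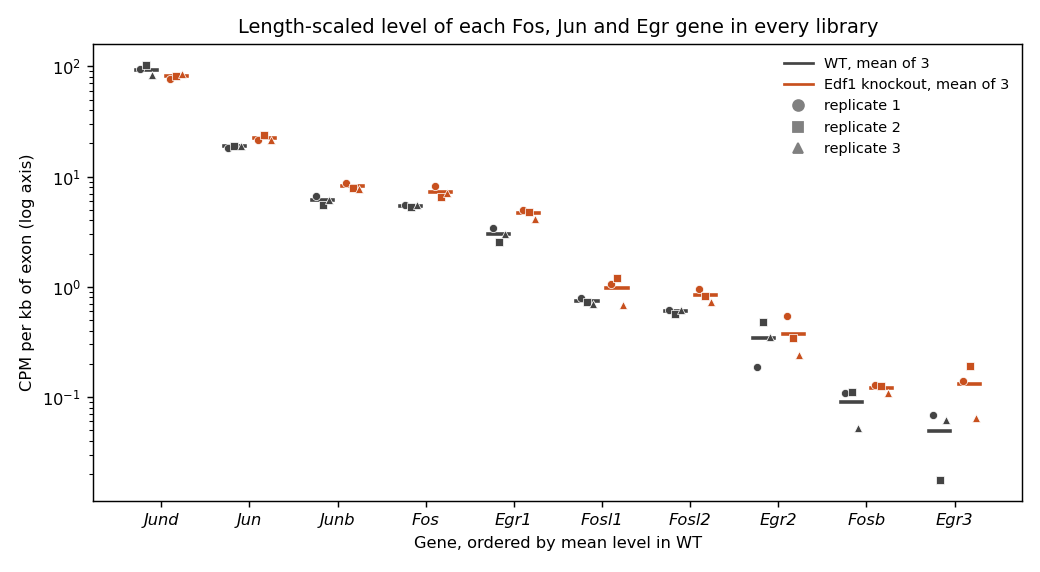
CPM per kb of exon (log axis) for each of the 10 genes in every library, with WT and knockout side by side, replicates as symbols and means of 3 libraries as lines. Jund is the highest and Fosb and Egr3 are the lowest, and the knockout points of Jun, Junb, Fos, Egr1 and Fosl2 all lie above the WT points.

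The deviation of each gene from its genotype mean shows which libraries stood apart. Knockout replicate 1 was the highest of the knockout libraries for Fos, Fosb, Fosl2, Junb, Egr1 and Egr2, and knockout replicate 3 the lowest for Fosb, Fosl1, Fosl2, Junb, Egr1 and Egr2. In WT, replicate 2 was the lowest for Fos, Fosl2, Junb and Egr1 and the highest for Jun, Jund, Fosb and Egr2. All 5 called genes were also called when WT replicate 2 was left out.

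In GENCODE M21 (GRCm38), Fos lies at chr12:85473890-85477273, Jun at chr4:95049034-95052222 as a single exon, Junb at chr8:84974484-84978718, Jund at chr8:70698949-70700616 and Fosl2 at chr5:32135801-32157842. Several of the 10 genes overlap others on the opposite strand, and no source used here says whether counting used strand. Exons of Junb overlap those of Prdx2, a peroxidase gene with means of 441 ± 40.2 (WT) and 422 ± 17.4 CPM (knockout; SD, n = 3), whose difference of -0.062 on the log2 scale was not called (edgeR adjusted p-value 0.507). Jun overlaps Junos, Jund overlaps Gm11175 and Fosl1 overlaps Ccdc85b. Reads of such pairs cannot be told apart without strand. At most 0.523% of the 31-base words of any of the 10 genes' transcripts occur in another gene, so near-identical copies affect few reads.

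Partners and cofactors of these proteins were also measured. Of 15 genes for other AP-1 partners and Egr4, 10 were tested, with a median log2 fold change of 0.013. Atf3, a stress-induced Jun partner, averaged 12.8 ± 0.32 CPM in WT cells and 10.9 ± 0.46 CPM in knockout cells (SD here and below over 3 libraries) and was not called (log2 fold change -0.24; edgeR adjusted p-value 0.0803). Nab2, which encodes a corepressor that binds Egr proteins and is itself a known Egr target, rose from 45.4 ± 1.82 to 73.7 ± 0.88 CPM. This was a rise of 0.70 on the log2 scale (SE 0.057; edgeR adjusted p-value 2.75e-06). For its paralog Nab1 the means were 22.9 ± 1.65 (WT) and 23.7 ± 2.75 CPM (knockout), a difference of 0.056 on the log2 scale that was not called (edgeR adjusted p-value 0.708).

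Genes upstream of the immediate early response were examined next, against 26.9% called over all genes (12.7% higher and 14.2% lower). Among 14 genes for serum response factor, its partners and the CREB group, 1 was called higher: Crem, a cyclic AMP response factor, at 0.31 (SE 0.094; edgeR adjusted p-value 0.0297). Crem was not called without WT replicate 3, knockout replicate 1, 2 or 3, with edgeR adjusted p-values of 0.0769, 0.0801, 0.0800 and 0.0823. Srf itself averaged 30.6 ± 2.90 CPM in WT cells and 29.5 ± 0.59 CPM in knockout cells (log2 fold change -0.062; edgeR adjusted p-value 0.618), and Elk1 19.6 ± 1.41 and 18.6 ± 0.46 CPM (-0.084, 0.500).

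Of 16 genes for ERK, JNK and p38 kinases and the kinases above them, 2 were called higher and 1 lower, against 12.7% and 14.2% over all genes. Map2k4, which activates JNK, the kinase that phosphorylates Jun, rose by 0.28 on the log2 scale (SE 0.074; edgeR adjusted p-value 0.0129). Leaving out knockout replicate 2 ended that call (0.24, edgeR adjusted p-value 0.0672). The changes of Map2k3 (0.25) and Map2k2 (-0.25) were each lost without WT replicate 1 (edgeR adjusted p-values 0.176 and 0.0631), without knockout replicate 1 (0.0762 and 0.131), without knockout replicate 2 (0.113 and 0.119) or without knockout replicate 3 (0.105 and 0.0866), and Map2k3 was not called by DESeq2 (0.0812).

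A list of 9 dual specificity phosphatases that switch MAP kinases off held 8 tested genes. Of these, 1 was called higher and 1 lower, a share near the 26.9% called over all genes. Dusp1, another such phosphatase, was called higher and is counted with the other immediate early genes below. Dusp14 fell from 52.2 ± 3.46 to 34.4 ± 1.75 CPM (log2 fold change -0.59, SE 0.071; edgeR adjusted p-value 5.80e-05). Dusp5, an ERK phosphatase of the nucleus, rose from 2.77 ± 0.44 to 4.58 ± 0.78 CPM (0.76, SE 0.20; edgeR adjusted p-value 0.0123), but was not called without knockout replicate 2 (0.65, 0.0586) or 3 (0.74, 0.0503). Of 12 genes for turnover and cofactors of Jun and Fos, 1 was called, Hdac3 at -0.16 (edgeR adjusted p-value 0.0379), against the same 26.9%. That call was lost without WT replicate 1 (0.0548), WT replicate 3 (0.0961) or knockout replicate 1, 2 or 3 (0.158, 0.0610 and 0.123).

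A broader set of 42 immediate early genes outside the 3 families held 40 tested genes, of which 10 were called higher, against 12.7% over all genes. That count was 7 without knockout replicate 2 and 12 without WT replicate 2. None was called lower by edgeR, DESeq2 or limma voom, against 14.2% called lower by edgeR over all genes. At an unadjusted p-value under 0.05 in edgeR, 0 were lower. The 10 genes were Phlda1, Hbegf, Dusp1, Plk2, Btg2, Ier3, Irf1, Pim1, Ccn1 and Socs3. Dusp1, a phosphatase that inactivates JNK and p38, rose from 15.6 ± 1.86 to 22.3 ± 2.56 CPM (log2 fold change 0.51, SE 0.11; edgeR adjusted p-value 0.00406). Hbegf, a ligand of the EGF receptor, rose from 38.4 ± 0.66 to 55.6 ± 2.22 CPM (0.54, SE 0.060, 3.64e-05). Plk2 rose from 22.4 ± 1.79 to 31.5 ± 2.15 CPM (0.48, SE 0.085, 0.00115), and Phlda1 from 3.58 ± 0.99 to 6.61 ± 0.82 CPM (0.87, SE 0.20, 0.00610).

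Not every immediate early gene moved with them. Ier2 averaged 6.71 ± 1.62 CPM in WT cells and 6.58 ± 1.17 CPM in knockout cells (log2 fold change 0.0045; edgeR adjusted p-value 0.989). Nr4a1, an orphan nuclear receptor, averaged 4.15 ± 0.79 and 4.72 ± 0.45 CPM (0.21, 0.441), and Arc 0.596 ± 0.26 and 0.638 ± 0.085 CPM (-0.0064, 0.992). The median log2 fold change of the 40 tested genes was 0.088, nearer to that of all genes (0.0029) than to that of the 9 tested Fos, Jun and Egr genes (0.38). These 3 genes and Pdgfra, Igf2, Myh11, Vim, Btg2, Ier3, Irf1, Pim1, Ccn1, Socs3, Atf3, Srf, Elk1 and Nab1 were named after their values were seen.

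**Figure D4:**
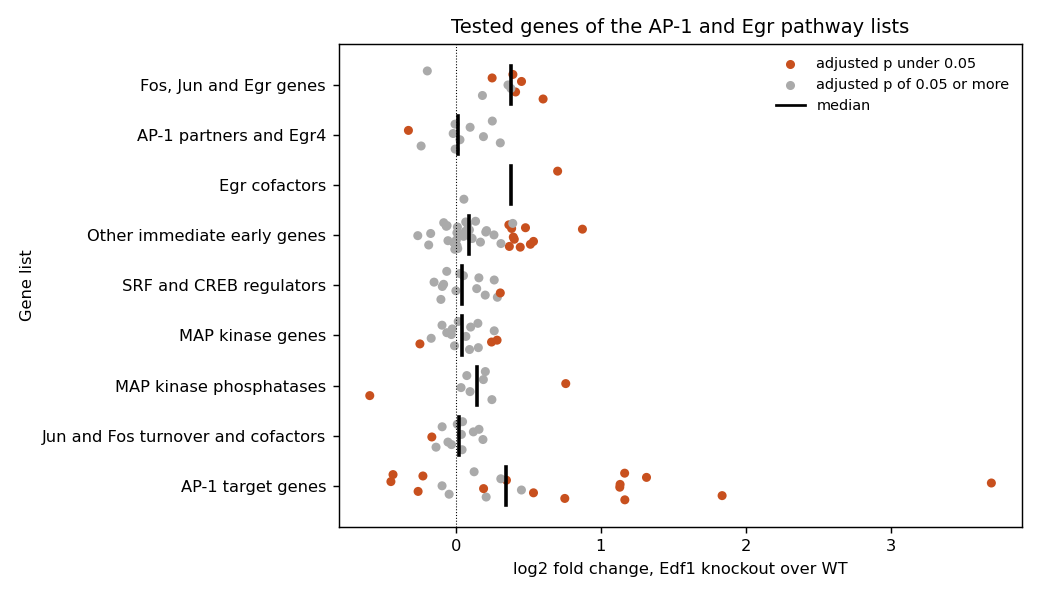
Log2 fold change of knockout over WT for every tested gene of the 9 lists of the AP-1 and Egr pathway (points, coloured where the adjusted p-value is under 0.05), with the list median as a black line. The Fos, Jun and Egr genes have a median of 0.38, the other immediate early genes of 0.088, and the AP-1 target genes run from -0.45 to 3.69, the last being Mmp3, whose fitted value depends on WT counts of 0 to 2.

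Of 25 textbook AP-1 targets, 21 were tested, 11 were called higher and 4 lower, against 12.7% and 14.2% over all genes. Fst, which encodes the activin antagonist follistatin, rose from 1.68 ± 0.55 to 6.37 ± 1.53 CPM (log2 fold change 1.84, SE 0.24; edgeR adjusted p-value 0.000127). The matrix protease gene Mmp3 had 2, 0 and 2 counts in the WT replicates and 16, 12 and 33 counts in the knockout replicates. The chemokine gene Ccl2 rose from 1.07 ± 0.35 to 2.24 ± 0.55 CPM (1.16, SE 0.30, 0.0118), and was not called without WT replicate 1 (1.02, edgeR adjusted p-value 0.0592) or knockout replicate 3 (0.91, 0.0845). The 4 targets called lower were Nqo1, Tgfb1, Hmox1 and Spp1. Hbegf stands in this list and in that of the other immediate early genes.

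The cultures are mixtures, and markers of several cell types differed between the genotypes beside these changes. The counts of called markers stand against 12.7% called higher and 14.2% called lower over all genes. In bulk RNA, fewer cells of a type and less RNA per cell cannot be told apart. All 12 ependymal markers were called lower, and their summed level was 2034 to 2288 CPM in WT and 1119 to 1189 CPM in the knockout. Of 14 tested microglia markers 12 were called lower, with a summed level of 2397 to 2555 CPM in WT and 1562 to 1631 CPM in the knockout. Of 9 tested fibroblast markers 7 were called higher, at 453 to 532 CPM in WT and 624 to 761 CPM in the knockout, with Col1a1 rising from 22.4 ± 4.48 to 44.7 ± 4.85 CPM (log2 fold change 1.01; edgeR adjusted p-value 0.000103). Pdgfra (-0.091) and Igf2 (0.025) of that list were not called, and Dpt was not tested. Of 6 tested mural markers 5 were called higher, at 825 to 868 CPM in WT and 978 to 1057 CPM in the knockout. Myh11 of that list had a log2 fold change of -0.76 and was not called, and Rgs5 and Kcnj8 were not tested. Of 12 radial glia and astrocyte markers 3 were called higher and 1 lower, against 12.7% and 14.2% over all genes. Their summed level was 10939 to 11309 CPM in WT and 11926 to 12421 CPM in the knockout, with no overlap, as for 43.3% of all tested genes. Most of that sum was Vim, with means of 6273 and 6849 CPM, which was not called (edgeR adjusted p-value 0.0723). Gfap, the marker called lower, had means of 539 and 402 CPM.

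Defining endothelial markers were near 0: Cldn5 had 0 counts in 5 libraries and 1 in knockout replicate 3, and Pecam1 had 2 to 5 counts per library. Cdh5 had 2, 4 and 5 counts in the WT replicates and 8, 26 and 13 in the knockout replicates. The 2 endothelial genes with enough counts went opposite ways, Kdr at 1.73 and Flt1 at -1.58 on the log2 scale. Of 7 tested neuron markers 2 were called lower (254 to 330 CPM in WT and 274 to 290 CPM in the knockout), and of 8 tested oligodendrocyte lineage markers 1 was called higher and 1 lower (545 to 582 CPM and 535 to 565 CPM). Both counts lie near the 26.9% called in either direction over all genes. The 2 called neuron markers both went down, however, and 14.2% were called lower over all genes. The part of these cell types in the changes of the immediate early genes was not tested.

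The genes whose log2 CPM over the 6 libraries most resembled Fos, Jun and Egr1 were taken from 11017 genes with a mean log2 CPM of at least 3. For Fos they were Crebl2, Alg6 and Galnt7, with Pearson's r of 0.996, 0.993 and 0.991. For Jun they were Sesn2, Dbn1 and Rab21 (0.992, 0.991 and 0.990), and for Egr1 Nynrin, Cpeb1 and Adcy1 (0.998, 0.997 and 0.996). All 9 had a higher mean in the knockout, from 11.8 ± 0.55 to 15.8 ± 2.16 CPM for Crebl2, from 33.7 ± 1.29 to 42.7 ± 2.81 CPM for Sesn2 and from 11.3 ± 1.46 to 17.2 ± 2.02 CPM for Adcy1 (SD, n = 3). The choice fixed that direction, because Fos, Jun and Egr1 had every knockout library above every WT library. It is therefore no separate result, and Galnt7 was not called (edgeR adjusted p-value 0.146). With 6 libraries in 2 genotypes and so many genes searched, values this near 1 describe these libraries and carry no test.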

How the data were processed

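Per the labels' protocols, RNA was extracted with TRIzol and made into libraries with MGIEasy mRNA reagents. Raw counts per gene symbol were deposited, 1 column for each library. Per the submitters' processing notes, FastQC 0.11.2, cutadapt 1.11, HISAT2 2.1.0 and the build GRCm38 were used, while the counting program, annotation and strand setting are not given in the sources used here. Without further change the deposited counts entered edgeR 4.0.16 in R 4.3.3 (filterByExpr, TMM factors of 0.985 to 1.01, quasi-likelihood test of knockout against WT on all 6 libraries without covariates). The filter left 14243 of 22851 genes. SEs are the log2 change over the square root of F, and 95% intervals use the fit's degrees of freedom. Log2 CPM used a prior count of 2. DESeq2 1.42.0 and limma 3.58.1 (voom) were alternatives, as were other scalings, filters of at least 1 count and of a mean of 50 counts, a threshold of 0.01, blocking on replicate number, leaving out single libraries, and a correction for GC content and exon length (splines with 4 degrees of freedom, 97.7% of tested genes matched in GENCODE M21). The scripts were tested on simulated data. Libraries of 1 genotype differed by more than sampling noise (chi-square per degree of freedom of 3.04 to 9.89), so each counted as 1 replicate.

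The genes described and the lists were chosen with earlier results of these data known. Genes named are the 10 Fos, Jun and Egr genes, Edf1, up to 4 called genes of each list with the largest change and the 3 genes most alike to Fos, Jun and Egr1. Others were named after their values were seen. The rows that name no gene numbered 0. Some genes that this rule would name are not reported here.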

Additional observations from a re-analysis of the deposited data

How the results depend on the processing

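Fos, Fosl2, Jun, Junb and Egr1 were called higher under DESeq2 size factors, library size alone, both filters, DESeq2, limma voom, the replicate block and the GC and length correction. The count of 5 was 4 at a threshold of 0.01 and ranged from 3 to 5 when 1 library was left out: it was 3 without knockout replicate 1 (Fos and Fosl2 lost) and 3 without knockout replicate 2 (Jun and Fosl2 lost). Calls of lower Fos, Jun or Egr genes went from 0 to 1, Jund, with no filter beyond 1 count and with the GC and length correction, and ranged from 0 to 1 with a library left out. The median of the tested Fos, Jun and Egr genes ranged from 0.32 to 0.48, the highest without knockout replicate 3, when Egr3 also passed the filter. Egr2 turned to -0.18 without WT replicate 1 and -0.15 without knockout replicate 1; the cause was not tested. Over all genes tested, 3833 were called, 2213 at a threshold of 0.01, and 2658 to 4340 with 1 library left out. The correlations between deviations of same-numbered WT and knockout libraries were 0.069, 0.060 and 0.037, so numbers were not taken to pair cultures; the replicate block gave 4065 called genes, with 5 of these genes higher and 0 lower. Among 53 other named genes, 721 of 791 alternative values kept direction and call, 70 lost the call and 0 reversed. The shares of Jund from CPM without length scaling, chosen after seeing the data, differed by -7.55 percentage points, against -6.10 with it. The count of 10 other immediate early genes called higher was 7 at a threshold of 0.01 and ranged from 7 to 12 with 1 library left out. Counts were fewest for Fosb, Egr2 and Egr3, at 1 to 30 per library, which limits their precision.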
